A study of Mus musculus with 9 samples.

Results

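The genes examined were 37 nuclear receptors and nuclear receptor coregulators, taken from a fixed list of gene symbols. A probe set, the group of short probes that reports 1 transcript on an Affymetrix array, was counted as belonging to a gene only where the array annotation gave it that symbol alone. Of the 37 genes, 35 were measured, among 18193 genes in all, and they were covered by 110 of 34945 probe sets with 1 symbol. The oxysterol receptor gene Nr1h2 and the corepressor gene Ncor1 had no such probe set and were not analysed here. The arrays measured total liver RNA of male mice at 14 weeks of age, kept on regular chow. Of the 9 arrays, 4 were of BKS.Cg-Leprdb mice, called db/db, which carry the db mutation in the leptin receptor gene Lepr on the C57BLKS background and were obese and diabetic with fatty liver disease at this age, and 5 were of their C57BL/KSlepr+/+ littermates, called BKS. The labels name no treatment for either group. The labels do not state that each array is of a different mouse, so p-values describe the spread between these samples.

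Nuclear receptors are transcription factors that bind DNA at short hexamer half-sites, and most are switched by a small lipid-soluble ligand. Many of those important in liver bind as a heterodimer with a retinoid X receptor (RXR), and the spacing between the paired half-sites helps to set which heterodimer binds. With no ligand, corepressors such as NCoR1 are held on the receptor; with ligand, coactivators of the p160 family (Ncoa1, Ncoa2 and Ncoa3) and the Mediator subunit Med1 take their place. In the liver these receptors control fatty acid oxidation, bile acid and retinoid metabolism and the clearance of foreign compounds. In whole tissue, fewer cells of a type and less RNA per cell cannot be told apart.

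The deposited array values are intensities in array units with a trimmed mean near 500 on every array, and the array medians ran from 67.4 to 110.8. The signal given for each gene below is the quantile-normalised intensity of its probe set with the highest mean, and changes are db/db minus BKS on the scale log2(value + 16), which understates the change of dim genes. Levels of different probe sets are not compared. The table holds no detection calls, and 29 of the 35 genes had a mean deposited signal of at least 100 in a group. The hepatocyte markers Alb, Apoa1, Ttr, Cps1 and Ass1 were measured, with a median log2 change of 0.02, and none passed the test. Of these 5, 4 had positive changes and 1 was lower at an unadjusted p under 0.05 (limma). Their summed signal was 165450 to 179269 in db/db and 179650 to 190137 in BKS livers, so the sums did not overlap. Such a sum is weighted to the brightest probe sets. Among all single genes 9.12% did not overlap in either direction, and 4.41% were lower in db/db without overlap. The 4 Lepr probe sets were dim, with log2 changes of 0.41, 1.17, -0.87 and -0.22 and adjusted p of 0.289 to 0.856 in a limma fit over probe sets. The db mutation alters Lepr splicing, so this level does not check the genotype. The arrays fell into sets that stand apart by the signal of the 18S ribosomal RNA control probe sets: the high set (db/db 3, db/db 4, BKS 4 and BKS 5) had 1114 to 9835 and the low set (the 5 remaining arrays) had 13.9 to 26.8. Each set holds arrays of both genotypes, so each result below was also computed with this split as a block and within each set. The labels name no batch.

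Among the members, 3 receptors rose in db/db liver and none fell. The risers were the estrogen-related receptor gene Esrrg, the retinoic acid receptor gene Rarb and the pregnane X receptor gene Nr1i2, with changes of 2.34-fold, 2.26-fold and 1.62-fold. By limma with Benjamini-Hochberg adjustment over 18193 genes, 3 of 35 members rose (8.57%), whereas 2.88% of all genes rose. No member fell, whereas 2.61% of all genes did. Over both directions 5.49% of all genes passed. At an unadjusted p under 0.05 there were 7 members higher and 3 lower, together 28.6% of the members and 17.6% of all genes. The 7 that were higher were Esrrg, Rarb, Nr1i2, Rxrg, Ppara, Thrb and Rara, and the 3 that were lower were Ncoa2, Hnf4a and Rxrb. In 5 members every db/db array lay above every BKS array (14.3%, against 4.71% of all genes in this direction and 9.12% in either): Esrrg, Rarb, Nr1i2, Rxrg and Thrb. In none did every db/db array lie below every BKS array, against 4.41% of all genes.

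The median log2 change was 0.07 over the 35 members and -0.00 over all genes, and 19 members had a positive change. For 19 of 35 members (54.3%) the 95% interval lay within 2-fold either way, as it did for 48.5% of all genes, and for the other 16 members the interval reached 2-fold in at least 1 direction. With the 18S split as a block 4 members rose (11.4%, against 4.10% of all genes in this direction and 8.24% in either), those 3 and Ppara, and 0 fell. The calls rest on few arrays. Without db/db 3 none of the 3 was past the threshold, with adjusted p of 0.0546 for Esrrg, 0.0794 for Rarb and 0.0884 for Nr1i2. The count of members that rose was 2 without db/db 1, 1 without db/db 2, 1 without db/db 4, and 3 in each fit without a BKS array. In the fit over probe sets 3 of the members' 110 rose, the ones that represent Esrrg, Rarb and Nr1i2, and 0 fell, whereas 3.48% of all probe sets passed in either direction.

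**Figure D1:**
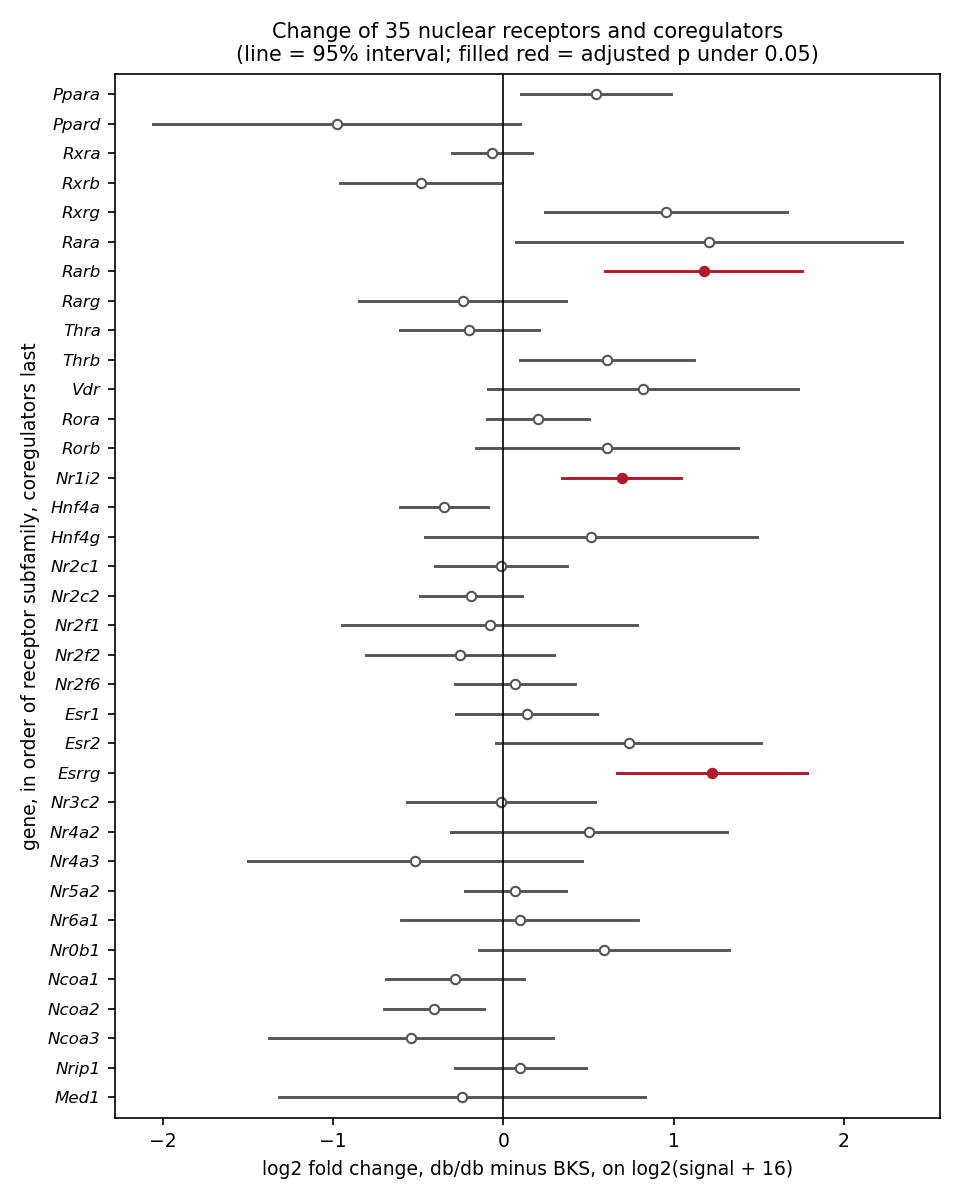
Log2 change in signal, db/db minus BKS, for the 35 measured members, in order of receptor subfamily with the coregulators last. Points are limma estimates and bars their 95% intervals; filled points passed an adjusted p of 0.05. Only Esrrg, Rarb and Nr1i2 passed, at 1.23, 1.18 and 0.70, and the intervals of Rara and Ppard are among the widest.

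Among the retinoic acid receptors, which bind all-trans retinoic acid as heterodimers with an RXR, Rarb was higher in db/db liver. Its signal was 413, 383, 488 and 327 in db/db livers, against 106, 131, 213, 179 and 243 in BKS livers. The groups did not overlap, and the log2 change was 1.18 (SE 0.27, adjusted p = 0.0210, limma). Rarb has a single probe set. The difference was 1.37 within the low 18S arrays and 0.89 within the high ones, and the adjusted p was above 0.05 without db/db 1 (0.0622), db/db 2 (0.0501) or db/db 3 (0.0794). Rara, the broadly expressed retinoic acid receptor, had a low signal, at 60.8 to 151 in db/db and 4.13 to 125.6 in BKS livers. Its log2 change of 1.21 had an adjusted p of 0.246 and a 95% interval of 0.07 to 2.34. Rarg, known mainly from skin, ran at 128 to 297 in db/db and 197 to 297 in BKS livers, with a log2 change of -0.24 (interval -0.85 to 0.37).

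Rarb is a textbook target of the retinoic acid receptors themselves, through a direct repeat of half-sites spaced by 5 bases in its promoter, and the retinoic acid hydroxylase gene Cyp26a1 carries the same kind of element. Both promoter windows, 250 bases before to 50 after the RefSeq transcript start in the GRCm38.p6 mouse assembly, are printed to show it, with the repeat in capitals. Either half-site could be AGGTCA, the textbook form, or a close variant, on either strand. The variant AGTTCA was taken. So was GGGTCA. The last variant taken was GGTTCA. In Rarb, chr14:16575427-16575726 on the minus strand, the repeat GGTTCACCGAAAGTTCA ends 36 bases before the start. In Cyp26a1, chr19:37697558-37697857 on the plus strand, it lies on the opposite strand as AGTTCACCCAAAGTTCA and reads in the window as TGAACTTTGGGTGAACT, 15 bases before the start.
Rarb: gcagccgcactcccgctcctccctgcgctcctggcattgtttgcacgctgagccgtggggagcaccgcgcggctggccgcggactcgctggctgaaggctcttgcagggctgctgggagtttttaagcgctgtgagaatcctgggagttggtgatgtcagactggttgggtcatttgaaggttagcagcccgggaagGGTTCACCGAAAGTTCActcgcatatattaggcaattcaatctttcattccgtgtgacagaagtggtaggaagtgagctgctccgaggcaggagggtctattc
Cyp26a1: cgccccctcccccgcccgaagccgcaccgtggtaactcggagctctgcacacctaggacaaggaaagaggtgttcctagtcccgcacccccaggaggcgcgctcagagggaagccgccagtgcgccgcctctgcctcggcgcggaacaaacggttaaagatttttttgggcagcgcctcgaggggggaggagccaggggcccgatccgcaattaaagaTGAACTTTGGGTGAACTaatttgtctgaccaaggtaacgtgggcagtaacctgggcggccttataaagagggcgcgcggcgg
Such a repeat was found in 32 of 32851 promoter windows in the RefSeq table (0.0974%). Of the 37 members 33 had a window, 52 windows in all, and Rarb was the only member with this repeat. Repeats spaced by 1, 2, 3 or 4 bases were found in none of the 52 windows, against 0.222%, 0.268%, 0.0396% and 0.0822% of all windows. A match describes letters in the window and is not evidence of binding. Of the 31 genes with a repeat spaced by 5 bases 11 were measured. Of these 1 rose, Rarb, 0 fell, and the median log2 change was -0.09.

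The list of retinoic acid target and retinoid handling genes held 16 genes, of which 15 were measured, 1 rose, 1 fell and the median log2 change was 0.19. Rdh16, a retinol dehydrogenase, rose 5.75-fold, with a signal of 6329, 5723, 6781 and 5159.7 in db/db livers, against 1278, 1394, 722, 965 and 909.9 in BKS livers. This was a log2 change of 2.52 (SE 0.18, adjusted p = 3.72e-06). Tgm2, the transglutaminase induced by retinoic acid, fell, at 2504 to 3733 in db/db and 4477 to 5768 in BKS livers, a log2 change of -0.78 with an adjusted p of 0.00533, but its most variable probe set gave 0.43. Cyp26a1 had 4757, 4578, 7993 and 3498 in db/db livers, against 1255, 1969, 4858, 1658 and 2451 in BKS livers. Its log2 change was 1.18 with an adjusted p of 0.0540, which became 0.0430 with the 18S block and 0.00515 without BKS 3. Cyp26b1, another retinoic acid hydroxylase, had 205, 325, 282 and 198 in db/db livers, against 28.8, 17.4, 104, 151 and 107 in BKS livers. For Cyp26b1 the log2 change was 1.68 with an adjusted p of 0.0543, or 0.0363 with the block. Lrat, which esterifies retinol for storage, had a log2 change of 0.94 and an adjusted p of 0.0850, or 0.0401 with the block. With the block 4 genes of the list rose, and 3 rose without BKS 3 and 2 without BKS 4.

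Hepatic stellate cells store the retinoids of the liver, and Lrat is also among their markers. All 10 markers of these cells had positive changes, with a median log2 change of 0.82. The median was 0.45 within the low 18S arrays and 1.34 within the high ones. The summed signal of the 10 markers ran from 11660.2 to 21739.7 in db/db livers and from 5097 to 18813 in BKS livers, and none was at 0. Of the 10, Ecm1, a matrix protein, passed the test at 0.94 (adjusted p = 0.0323). That call was lost in 6 of 9 fits with an array left out: BKS 1, BKS 4, BKS 5, db/db 2, db/db 3 or db/db 4 (adjusted p 0.0549 to 0.109). With the 18S block 3 of the markers rose, Ecm1, Lrat and Rgs5, and without BKS 3 also 3 rose. The part of these cells in the values of Rarb, Rxrg, Vdr, Cyp26a1, Cyp26b1 and Lrat was not tested.

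**Figure D2:**
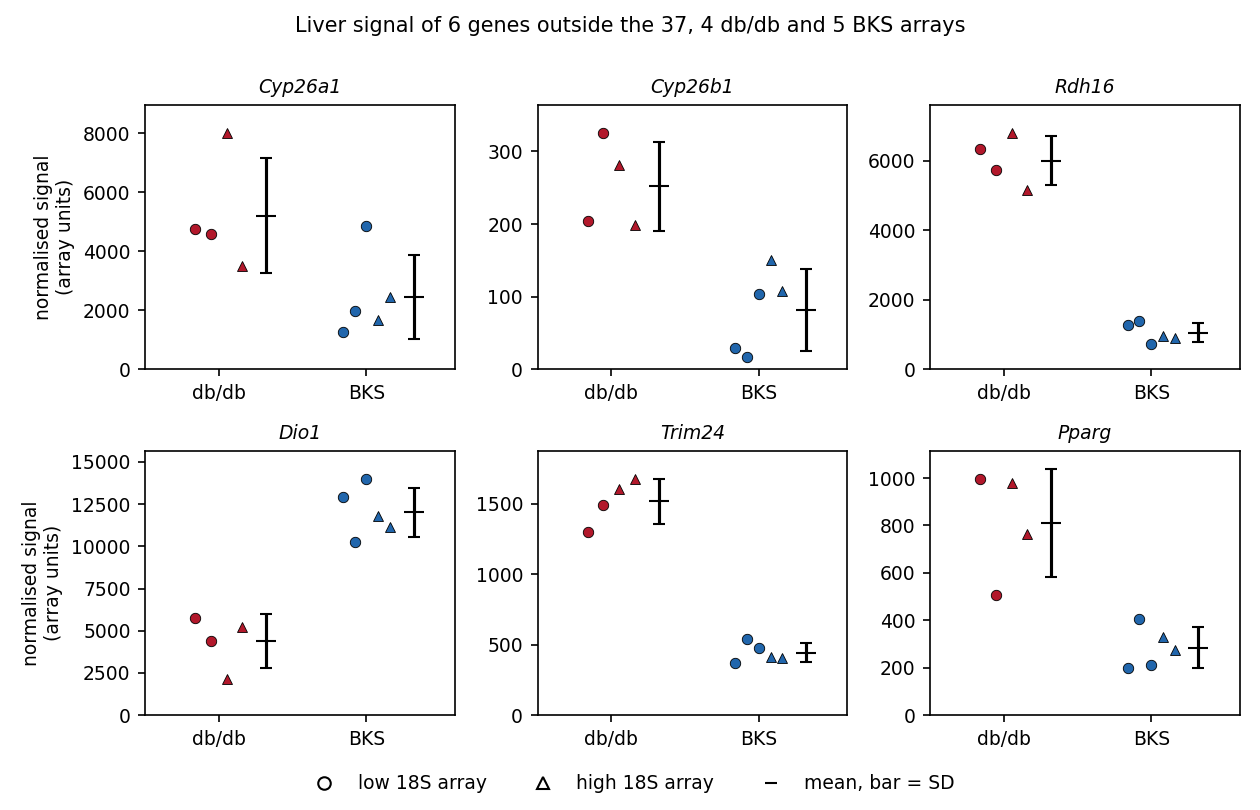
Normalised signal of Cyp26a1, Cyp26b1, Rdh16, Dio1, Trim24 and Pparg on each array, in array units, db/db left and BKS right. Points are arrays, circles for low and triangles for high 18S signal, and bars are means with SD. The groups are apart for Cyp26b1, Rdh16, Trim24 and Pparg (db/db higher) and for Dio1 (db/db lower), and overlap for Cyp26a1.

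The RXRs, the shared partners of the retinoic acid, thyroid hormone, vitamin D, xenobiotic and fatty acid receptors, did not pass the test. Rxra, the main RXR of hepatocytes, had 5043, 5735, 5135 and 4966 in db/db livers, against 4816, 6404, 5306, 5114 and 5805 in BKS livers. The groups overlapped, the log2 change was -0.07, and its interval of -0.30 to 0.17 was the narrowest of the 35 members. Rxrg, usually described in muscle, brain and stellate cells, had 238, 231, 269 and 303 in db/db livers, against 52.3, 206, 142, 142 and 133 in BKS livers. Every db/db array was above every BKS array, with BKS 1 the lowest. The log2 change was 0.96 with an adjusted p of 0.127. Rxrb, the broadly expressed RXR, had 1129, 1367, 1096 and 1306 in db/db livers, against 1076, 1700.4, 1404, 2651 and 2145 in BKS livers. Its log2 change was -0.48 (adjusted p = 0.273). The difference was -0.14 within the low 18S arrays and -0.99 within the high ones, and the high set fitted alone gave -1.02 with an adjusted p of 0.0303.

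**Figure D3:**
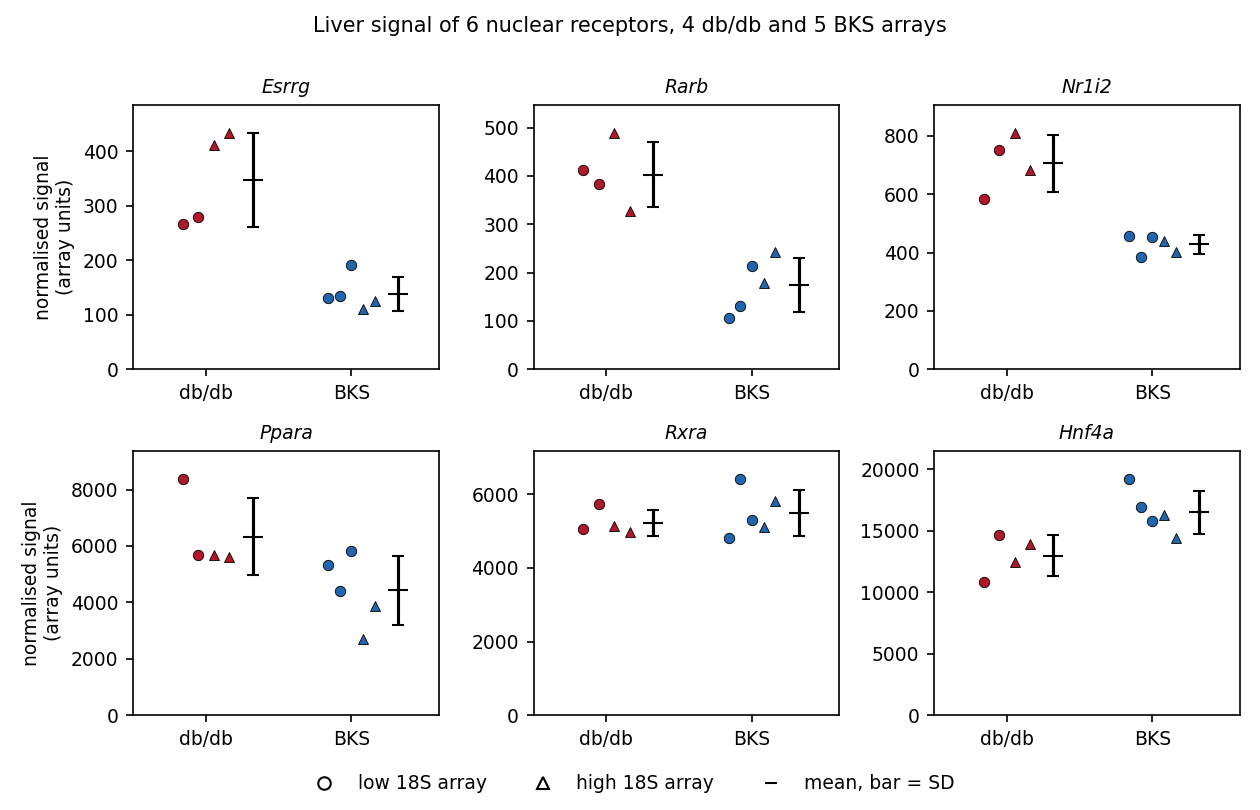
Normalised signal of Esrrg, Rarb, Nr1i2, Ppara, Rxra and Hnf4a on each array, in array units, db/db left and BKS right. Points are arrays, circles for low and triangles for high 18S signal, and bars are means with SD. For Esrrg, Rarb and Nr1i2 all 4 db/db arrays lie above all 5 BKS arrays; for Ppara, Rxra and Hnf4a the groups overlap.

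Ppara, the fatty acid receptor that drives fatty acid oxidation in liver, was 1.46-fold higher on average but did not pass the test without the block. Its signal was 8361, 5684, 5670.1 and 5602 in db/db livers, against 5340.4, 4412, 5813, 2704 and 3858 in BKS livers. Only db/db 1 lay above all BKS arrays. The log2 change was 0.54 (SE 0.20, adjusted p = 0.169), and with the 18S block it was 0.59 (SE 0.15, adjusted p = 0.0266). The other Ppara probe sets gave 0.60 and 0.62. In the one at 0.62 every db/db array was above every BKS array, at 3305, 2203, 3175 and 2874 in db/db livers, against 1502, 1578, 2046, 2128 and 2093 in BKS livers, with an adjusted p of 0.0509 in the fit over probe sets. Ppard, the more broadly expressed relative, had a low signal, at 19.2 to 150.1 in db/db and 78.3 to 406 in BKS livers. Its log2 change was -0.98 (adjusted p = 0.343, limma, interval -2.06 to 0.10).

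Of 33 listed PPAR alpha target genes 28 were measured, 17 rose and 0 fell, with a median log2 change of 0.59. No member of this list was lower at an unadjusted p under 0.05, and 27 of 28 had positive changes. The smallest adjusted p-values belonged to the acyl-CoA thioesterases Acot3 and Acot4 and the retinol saturase Retsat. Acot3 had a signal of 3987 to 9728 in db/db and 34.7 to 232 in BKS livers, a log2 change of 5.75 (adjusted p = 5.61e-06). Acot4 had 753 to 1707 in db/db and 71.4 to 131 in BKS livers, a change of 3.19 (adjusted p = 1.28e-05). Retsat had 19174 to 27247 in db/db and 8194 to 12476 in BKS livers, a change of 1.21 (adjusted p = 2.22e-04). The count ran from 13 to 16 with an array left out. It was 7 for the low 18S set by itself and 12 for the high one, 9 under median centring, 10 when probe sets were picked by variance, and 8 without the intensity trend.

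Nr1i2, the pregnane X receptor (PXR), senses drugs and bile acids and induces cytochrome P450 genes. It was higher in db/db liver, at 582, 751, 808 and 683 in db/db livers, against 458, 385, 455, 439 and 401 in BKS livers. The groups did not overlap. For Nr1i2 the log2 change was 0.70 (SE 0.16, adjusted p = 0.0235), with 0.60 within the low 18S arrays and 0.80 within the high ones. Its other probe set gave 0.57 with an unadjusted p of 0.0261, adjusted 0.244, and the groups overlapped there. The adjusted p was above 0.05 without db/db 2 (0.0693), db/db 3 (0.0884) or db/db 4 (0.0530).

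Of 20 listed PXR target genes 15 were measured, 6 rose and 2 fell, with a median log2 change of 0.27. Cyp2b10, the classic phenobarbital-induced cytochrome, rose, at 1471, 2763, 3257 and 1606 in db/db livers, against 433, 100.3, 321, 138 and 109 in BKS livers. This was a log2 change of 3.42 (SE 0.40, adjusted p = 2.25e-04). Cyp2b10 is also a textbook target of the constitutive androstane receptor, encoded by Nr1i3. Abcc3, a bile acid and conjugate exporter, rose by 1.32 on the log2 scale (adjusted p = 0.00538), and the organic anion uptake gene Slco1a4 by 0.95 (adjusted p = 0.00785). The carboxylesterase gene Ces2a fell, at 5999 to 8889 in db/db and 15779 to 19206 in BKS livers, a change of -1.15 (adjusted p = 1.60e-04). Cyp2c55 had -1.02 (adjusted p = 0.0228), and that call was lost in 6 of 9 fits with an array left out: BKS 1, BKS 4, BKS 5, db/db 1, db/db 2 or db/db 3 (adjusted p 0.0528 to 0.0607). The count of rises was 4 without db/db 3 and 4 without db/db 4, 1 in the low 18S arrays alone and 2 without the intensity trend.

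Esrrg, an orphan receptor that turns on mitochondrial and, in fasted liver, gluconeogenic genes, had the smallest adjusted p of the members. Its signal was 267, 279.7, 412 and 433 in db/db livers, against 131, 135, 191, 111 and 125 in BKS livers. All db/db arrays were above all BKS arrays, and the log2 change was 1.23 (SE 0.26, adjusted p = 0.0135). Within the low 18S arrays the difference was 0.80 and within the high ones 1.71. The other Esrrg probe sets gave -0.17 and 0.19, with adjusted p of 0.945 and 0.914, so the rise was seen on 1 of 3 probe sets. It had an adjusted p of 0.0546 when db/db 3 was left out and 0.0533 when db/db 4 was.

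The steroid receptors of the list did not pass. Esr1, the main estrogen receptor of liver, had 1741 to 2518 in db/db and 1417 to 2645 in BKS livers, a log2 change of 0.14 (interval -0.28 to 0.55). Esr2, the other estrogen receptor, was dim at 6.77 to 54.9 in db/db and 4.85 to 10.2 in BKS livers, with 0.74 (interval -0.04 to 1.52). The mineralocorticoid receptor gene Nr3c2 had 196 to 349 in db/db and 188 to 396 in BKS livers, with -0.01 (interval -0.57 to 0.54). Of 12 mineralocorticoid and glucocorticoid responsive genes, all measured, 3 rose and 0 fell, with a median of 0.62. There were 7 higher and 0 lower at an unadjusted p under 0.05. Fkbp5, a chaperone partner of steroid receptors, rose, at 1451, 1774, 1797 and 1602 in db/db livers, against 479.9, 731, 379, 751 and 750.1 in BKS livers. This was a log2 change of 1.44 (adjusted p = 9.80e-04). Tsc22d3, the leucine zipper gene induced by glucocorticoids, rose by 0.81 (adjusted p = 0.0224), which was lost without BKS 1, BKS 4 or db/db 2 (0.0505 to 0.0551). The metallothionein gene Mt1 rose by 2.71 (adjusted p = 0.0388), which was lost in 7 of 9 fits, without any of BKS 3, BKS 4, BKS 5 or db/db 1 to db/db 4 (0.0576 to 0.0963). The count of rises was 1 without BKS 4 and 1 without db/db 2.

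Thrb, the main thyroid hormone receptor of liver, had 248, 219.7, 243 and 209 in db/db livers, against 119.9, 139, 160.4, 169 and 139.8 in BKS livers. The groups did not overlap, yet the log2 change of 0.61 (SE 0.24) had an adjusted p of 0.184. Thra, the other thyroid hormone receptor, had 309 to 425 in db/db and 343 to 509.7 in BKS livers, with -0.20 (interval -0.61 to 0.21), and all 3 of its probe sets had negative changes. The vitamin D receptor gene Vdr, in liver mostly expressed outside hepatocytes, had 95.3 to 147 in db/db and 16.1 to 133 in BKS livers, with 0.82 (interval -0.09 to 1.73). Of 6 listed vitamin D receptor targets 5 were measured, 0 passed the test in either direction (limma; 0 at an unadjusted p under 0.05 as well) and the median was 0.20.

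Of 13 listed thyroid hormone targets 12 were measured, 5 rose and 3 fell, with a median of 0.33. The deiodinase gene Dio1, which converts thyroxine to its active form and is itself induced by thyroid hormone, fell. Its signal was 5752, 4421, 2129.6 and 5212 in db/db livers, against 12905, 10270.3, 13966, 11802 and 11133 in BKS livers. The groups did not overlap and the log2 change was -1.54 (SE 0.23, adjusted p = 0.00147). Bcl3, a nuclear factor of the NF-kappa B system, had -1.05 (adjusted p = 0.00356). The Kruppel-like factor gene Klf9 had -0.73 (adjusted p = 0.00568), but 0.26 on its most variable probe set. The lipogenic genes Thrsp and Acaca rose by 1.09 and 1.10 (adjusted p = 0.00246 and 0.00739). Of 23 alternative ways of processing, 2 lost the call of Thrsp and 4 that of Acaca, with adjusted p up to 0.108 and 0.687 (limma). None of these was a fit with an array left out. Cyp7a1, the rate-limiting enzyme of bile acid synthesis, rose by 1.70 (adjusted p = 0.0164), at 8214 to 15889 in db/db and 1486 to 7582 in BKS livers. It had an adjusted p of 0.0557 when db/db 1 was left out and 0.0526 when db/db 2 was. The count of rises was 3 without db/db 1 and 3 without db/db 3.

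Cyp7a1 is also in the lists of LXR, HNF4 alpha and LRH-1 targets, so its rise counts in each. LXRs are the oxysterol receptors, 1 of which is the product of Nr1h2, not analysed here. The other LXR gene, Nr1h3, is among the other nuclear receptors listed for comparison. It had 1751 to 2314 in db/db and 1381 to 2147 in BKS livers, with a log2 change of 0.24 (adjusted p = 0.447, limma). Of 15 listed LXR targets 14 were measured, 1 rose (Cyp7a1) and 1 fell, with a median of 0.20. The one that fell was Abca1, the cholesterol exporter, at 4248 to 5559 in db/db and 8142 to 10548 in BKS livers. Its log2 change was -0.91 (adjusted p = 6.38e-04), and -0.09 on its most variable probe set.

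Hnf4a, a receptor that maintains hepatocyte identity, had 10840.3, 14689, 12487 and 13966 in db/db livers, against 19193, 16908, 15799.9, 16288 and 14406 in BKS livers. Of the db/db arrays 3 lay below all BKS arrays, and db/db 2 lay above BKS 5. The log2 change was -0.35 (SE 0.12, adjusted p = 0.121), with a 95% interval of -0.61 to -0.09. The other Hnf4a probe sets gave 0.01, 0.32 and 0.55, so the sign depends on the probe set. Hnf4g, the relative known mainly from gut, was dim at 28.6 to 56.3 in db/db and 6.37 to 71.4 in BKS livers, with 0.51 (interval -0.46 to 1.49). Of 30 listed HNF4 alpha targets 26 were measured, 4 rose and 3 fell, with a median of 0.01. The glucose transporter gene Slc2a2 rose by 0.78 (adjusted p = 0.00290). The bile acid uptake gene Slc10a1 rose by 0.50 (adjusted p = 0.0128), which was lost without db/db 3 (0.0541). The coagulation factor gene F12 had -0.83 (adjusted p = 0.00445). The fetuin gene Fetub had -0.37 (adjusted p = 0.0355), lost in all 9 fits with an array left out (0.0523 to 0.103). F11, another coagulation factor, had -0.95 (adjusted p = 0.0414), lost in 7 of 9, without BKS 3, BKS 4, BKS 5 or any db/db array (0.0564 to 0.115). The count of falls was 1 without BKS 3, BKS 4, BKS 5 or any db/db array, and the count of rises 2 without db/db 3.

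The retinoic acid receptor-related orphan receptors (RORs) share their response elements with the clock repressors of the Rev-erb family. Rora, the hepatic one, had 2435 to 2962 in db/db and 1833 to 2565 in BKS livers, with a log2 change of 0.20 (interval -0.10 to 0.50). Its 9 probe sets ran from -0.16 to 0.48 and 7 were positive. Of them 2, at 0.42 and 0.48, had an unadjusted p under 0.05 (limma), and 0 rose. Rorb, known from brain and retina, was dim at 46.8 to 107 in db/db and 19.6 to 56.6 in BKS livers, with 0.61 (interval -0.16 to 1.38). Of 18 symbols listed for ROR targets and clock genes 13 were measured, 2 rose and 3 fell, with a median of -0.42. The symbols name fewer genes, as G6pc1, among those not measured, is another name of G6pc. The oxysterol 7-alpha-hydroxylase gene Cyp7b1 fell, at 4257, 3469, 2121 and 3166 in db/db livers, against 32201, 25203, 33374, 31839.5 and 29164 in BKS livers. This was a log2 change of -3.25 (SE 0.17, adjusted p = 2.57e-07). The fatty acid elongase gene Elovl3 had -3.17 (adjusted p = 2.84e-04) and the vasopressin receptor gene Avpr1a -2.12 (adjusted p = 4.07e-04). The estrogen sulfotransferase gene Sult1e1 rose, at 2008, 2029, 5573 and 5498 in db/db livers, against 14.6, 45.8, 93.3, 68.4 and 737 in BKS livers, a log2 change of 4.99 (adjusted p = 9.01e-04). The highest BKS array was BKS 5, and without it the change of Sult1e1 was 5.69. G6pc, the catalytic subunit of glucose-6-phosphatase, rose by 1.38 (adjusted p = 0.00890).

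The remaining orphan receptors gave no call between the groups. Nr2c1 and Nr2c2, the testicular receptors TR2 and TR4, had log2 changes of -0.02 (interval -0.40 to 0.37) and -0.19 (interval -0.49 to 0.11). Nr2c1 ran at 529.5 to 670.1 in db/db and 499 to 822 in BKS livers, and Nr2c2 at 1192 to 1584 in db/db and 1231 to 1778 in BKS livers. The chicken ovalbumin upstream promoter factors Nr2f1 and Nr2f2 and their relative Nr2f6, repressors at many direct repeats, had -0.08, -0.26 and 0.07, with intervals of -0.95 to 0.79, -0.81 to 0.30 and -0.29 to 0.42. Nr2f1 was dim, at 19.0 to 40.5 in db/db and 4.77 to 49.9 in BKS livers, and Nr2f6 ran at 2700.3 to 3712 in db/db and 2129 to 3577 in BKS livers. The immediate-early receptor Nr4a2 had 93.9 to 164 in db/db and 44.3 to 156 in BKS livers. Its relative Nr4a3 was dim, at 26.6 to 55.3 in db/db and 25.2 to 170.4 in BKS livers. Their changes were 0.50 (interval -0.31 to 1.31) and -0.52 (interval -1.50 to 0.46). Nr5a2, the liver receptor homolog LRH-1, which supports bile acid synthesis, had 2315 to 2930.3 in db/db and 2007 to 2985 in BKS livers, with 0.07 (interval -0.23 to 0.37). Of 10 listed LRH-1 targets 8 were measured, 1 rose (Cyp7a1) and 0 fell, with a median of 0.03; 2 were higher and 2 lower at an unadjusted p under 0.05, and 1 fell without db/db 2 and 1 (Abcb11) with the 18S block. The germ cell nuclear factor gene Nr6a1 had 284 to 389.8 in db/db and 171 to 558 in BKS livers, with 0.10 (interval -0.60 to 0.79). Nr0b1, a receptor without a DNA-binding domain that acts as a corepressor, was dim at 7.42 to 40.9 in db/db and 3.64 to 19.4 in BKS livers, with 0.59 (interval -0.14 to 1.32).

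None of the 5 measured coregulators passed the test. Ncoa1, a p160 coactivator, had 895, 745, 1104 and 852 in db/db livers, against 1662, 926, 998, 1006 and 987 in BKS livers. There were 3 db/db arrays below all BKS arrays, while db/db 3 lay within their range. The log2 change was -0.29 (SE 0.19, adjusted p = 0.484). Of its other probe sets 1 gave -0.28 and a dim one 0.78. Ncoa2, the p160 coactivator also called TIF2, had 1577, 1229, 1356 and 1696 in db/db livers, against 1968, 1581, 2004, 2073 and 2073 in BKS livers. Here too 3 db/db arrays were below all BKS arrays, and db/db 4 was above BKS 2. For Ncoa2 the log2 change was -0.41 (SE 0.14, adjusted p = 0.115, or 0.0558 with the 18S block), and all 4 probe sets had negative changes, from -0.41 to -0.25. Ncoa3, the third p160 member, had 71.5 to 351 in db/db and 227 to 456 in BKS livers, with -0.54 (interval -1.38 to 0.29). Nrip1, the ligand-dependent corepressor RIP140, had 760.4 to 989 in db/db and 612 to 1088 in BKS livers, with 0.10 (interval -0.29 to 0.49).

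Med1 encodes the Mediator subunit that binds receptors carrying their ligand. On the probe sets that represent them, Med1 and Nr2f2 differed between the 18S sets of arrays. Neither passed the test between the genotypes. Med1 had 536, 1100.2, 412 and 467 in db/db livers, against 1202, 1349, 1213, 349 and 222 in BKS livers. The BKS arrays with high 18S signal, BKS 4 and BKS 5, were the lowest of all, and the db/db arrays with high 18S signal were the next. The high minus low 18S difference was -1.51 for Med1 (adjusted p = 0.00964, limma with the group as a term) and -0.75 for Nr2f2 (adjusted p = 0.0138). Nr2f2 had 1141, 1566, 625 and 677 in db/db livers, against 1229, 1405, 1256, 941 and 853 in BKS livers. These were 2 of 35 members (5.71%), both lower in the high set, against 3.52% of all genes. The db/db minus BKS difference of Med1 was -0.69 within the low set and 0.63 within the high set. The 18S difference was not fitted on other probe sets of these genes, and it was not seen on all of them. Another Med1 probe set had 451 to 705 on the low 18S arrays and 634 to 760 on the high ones. Another of Nr2f2 had 153 to 429 on the low and 287 to 525 on the high arrays. Over the members, 25 of 35 (71.4%) had the same sign of the difference in both sets, against 62.0% of all genes.

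**Figure D4:**
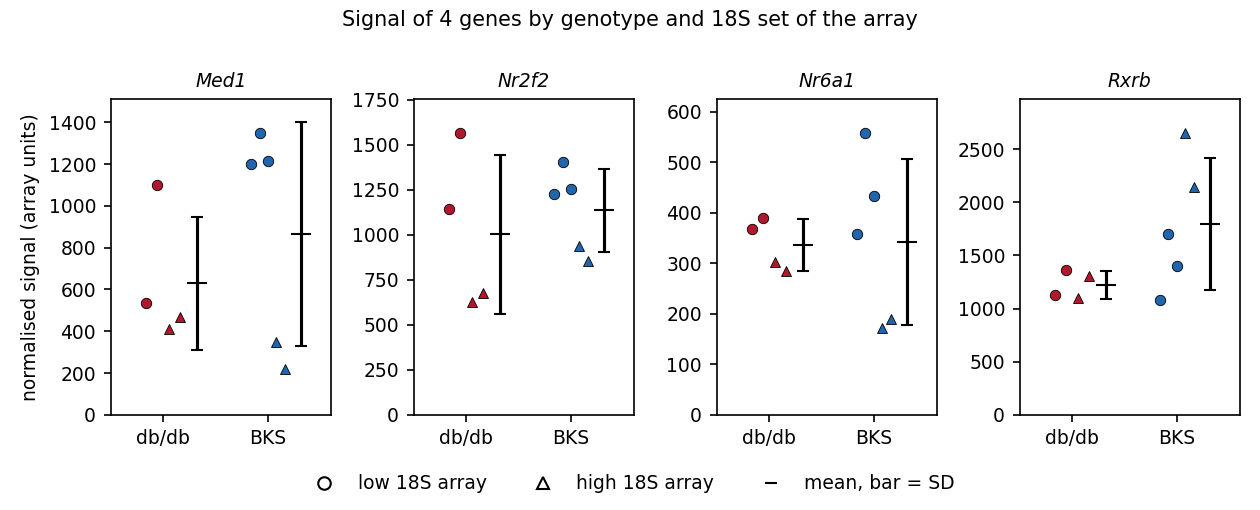
Normalised signal of Med1, Nr2f2, Nr6a1 and Rxrb on each array, in array units, db/db left and BKS right. Points are arrays, circles for low and triangles for high 18S signal, and bars are means with SD. In Med1 and Nr2f2 the triangles of each group lie below all circles of that group, on the probe set that represents each gene.

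Of 17 other nuclear receptors listed for comparison 14 were measured, 3 rose and 0 fell, with a median of 0.32; 3 were higher and 2 lower at an unadjusted p under 0.05. Pparg, the fatty acid receptor of adipocytes that is raised in many fatty livers, had 994, 509, 978 and 763 in db/db livers, against 198, 407, 213, 328 and 273 in BKS livers. The groups did not overlap, and the log2 change was 1.46 (SE 0.26, adjusted p = 0.00441). The adipocyte markers measured were 3, with 0 called, a median of 0.03 and a summed signal of 79.9 to 159 in db/db and 41.5 to 146 in BKS livers. Nr1i3, the constitutive androstane receptor, which shares targets with PXR, had 1651 to 3148 in db/db and 860.3 to 1782 in BKS livers. Its change was 1.00 (adjusted p = 0.0154), and the adjusted p was 0.0518 when db/db 1 was left out and 0.0533 when db/db 2 was. The bile acid receptor gene Nr1h4 had 4329 to 4866 in db/db and 2193 to 3599 in BKS livers. Its change was 0.70 (adjusted p = 0.0168), and the adjusted p was 0.0531 when db/db 1 was left out and 0.0582 when db/db 3 was. Without db/db 1 only 1 of this list rose. With the 18S block 3 of the list rose and 1 fell, the glucocorticoid receptor gene Nr3c1. Nr3c1 had 2937, 2324, 1495 and 1392 in db/db livers, against 3700.02, 3354, 3599.8, 1848 and 1978 in BKS livers. The groups overlapped, and its log2 change was -0.51 (adjusted p = 0.348) without the block and -0.42 (adjusted p = 0.0220) with it, but 0.25 on its most variable probe set.

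Of 36 other coregulators 35 were measured, 1 rose and 1 fell, with a median of -0.14, and 5 were higher and 6 lower at an unadjusted p under 0.05. Trim24, a corepressor of retinoic acid receptors in mouse liver, rose 3.36-fold, at 1301, 1491, 1605 and 1675 in db/db livers, against 369.7, 539, 479.6, 415 and 405 in BKS livers. Every db/db array was above every BKS array, with a log2 change of 1.75 (SE 0.16, adjusted p = 2.59e-05), and the call held in all 9 fits with an array left out. Tbl1xr1, a subunit of the NCoR corepressor complex, had 1286 to 1469 in db/db and 1792 to 2004 in BKS livers. Its change was -0.50 (adjusted p = 0.0168), but 0.53 on its most variable probe set. That call was lost without db/db 3 (0.0563). With the 18S block 4 of these coregulators rose and 2 fell, and without BKS 3 also 2 fell.

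**Figure D5:**
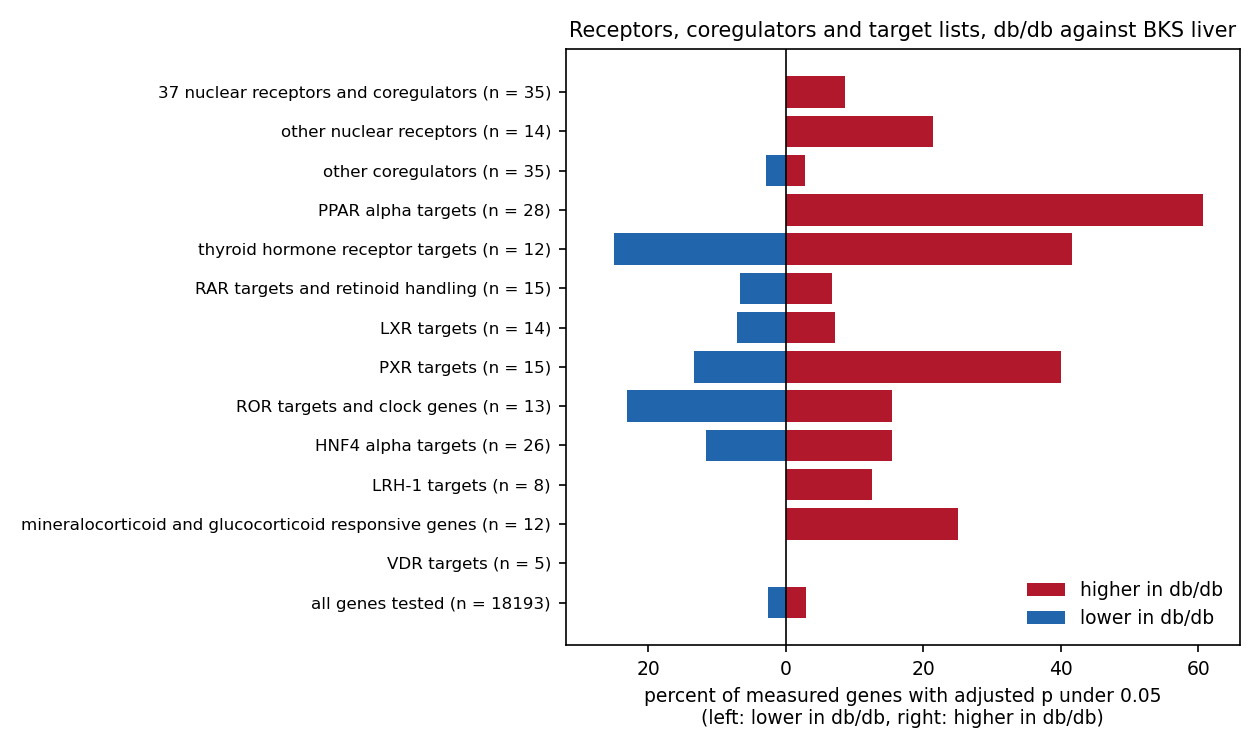
Percent of measured genes that rose and that fell in db/db liver (adjusted p under 0.05, limma) in each gene list, with all 18193 genes for scale. PPAR alpha targets had 17 of 28 genes risen and none fallen, while the members had 3 of 35 risen.

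Markers of other liver cell types gave 1 further call. The erythroid marker Alas2, a heme synthesis enzyme, fell by 1.20 on the log2 scale (adjusted p = 0.0113). Markers of Kupffer cells and macrophages had a median of -0.44, cholangiocytes -0.77, lymphocytes -0.51, neutrophils -0.18 and sinusoidal endothelium 0.02, with none called. With the 18S block 2 Kupffer cell or macrophage markers fell (Adgre1 and Cd5l), 1 cholangiocyte marker fell (Sox9) and 1 endothelial marker rose (Pecam1). With an array left out, 1 Kupffer cell or macrophage marker fell without db/db 1, 1 cholangiocyte marker fell without db/db 3, and 1 endothelial marker rose without BKS 2. The summed Kupffer cell and macrophage signal ran from 2231 to 5844 in db/db livers and from 3608 to 10217 in BKS livers.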

How the data were processed

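Total RNA of 8 µg from 100 mg aliquots of liver was labelled with biotin and hybridised to single-colour Affymetrix arrays, per the labels' protocols. The deposited values are linear intensities of 45101 probe sets on 9 arrays. How the authors corrected and scaled them, and with what software, is not given in the sources used here. On every array the mean of the deposited intensity values after trimming 2% at each end was 500.0035 to 500.0049. No arrays were identical. Precision is limited by the number of arrays.

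The 64 control probe sets, 932 with several symbols and 9160 not listed in the annotation were left out of the tests. RefSeq gene identifiers matched 34741 of the remaining 34945, and no symbol changed. Intensities were transformed as log2(value + 16). Array medians then spanned 0.61, above the limit of 0.25, so values were quantile normalised with limma 3.58.1 in R 4.3.3. The probe set with the highest overall mean stood for its gene, with no filter on dim genes. Each of 18193 genes was tested with limma (lmFit and a trended eBayes, two-sided, no covariate), with p-values adjusted by Benjamini-Hochberg and a threshold of 0.05, and the probe sets in a second fit over 34945. "Rose" and "fell" are used only past it. The steps were tested on simulated data, with changes placed only in genes above the median signal. The fit recovered 12% of 1.5-fold, 52.2% of 2-fold and 92.6% of 4-fold changes, and 2.21% of its calls were false. A gene that did not pass may therefore still have changed, and the simulation sets no upper limit on that change, as it left out dim genes. The interval lay within 2-fold either way for 19 of the 35 measured members. Of those that did not pass, Rara had an interval of 0.07 to 2.34 and Ppard of -2.06 to 0.10 on the log2 scale, so larger changes remain possible there.

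The members, gene lists and rules were chosen with earlier results of these data known. Lists come from textbook knowledge, share some genes and were described by counts and medians, with no set test. Values on every array are given for members that passed, for Ppara, Rxra, Hnf4a and Ncoa1 whatever their call, and for further genes singled out after their values were seen (Rxrg, Rxrb, Thrb, Ncoa2, Med1, Nr2f2, Cyp26a1 and Cyp26b1). Of each list up to 3 genes per direction with the smallest adjusted p are named. Lrat, Nr3c1, Abcb11, Rgs5, Adgre1, Cd5l, Sox9 and Pecam1 were also chosen after their values were seen. Lepr was named as the mutated gene and Nr1h3 as the other LXR gene.

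Both groups number their samples. Deviations from the group means of same-numbered samples correlated at 0.03, 0.17, -0.07 and 0.13 for numbers 1 to 4, so they were not treated as pairs. The 18S split was made at the largest gap in the control signal. Alternatives covered normalisation, pseudocount, dim genes, probe set rule, eBayes settings, array weights, the 18S split, the replicate block and each array left out. In all but the probe set rules the probe set of a gene stayed the same.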

Additional observations from a re-analysis of the deposited data

Results flagged for a closer look

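In 70 groups of arrays (35 genes in both genotypes) the highest or lowest array was set against the others by Dixon's test, which chance passes in about 5% of groups, and 5 groups were past its limit. Ppara, the fatty acid receptor, had 8360 array units on db/db 1, with the other db/db arrays at 5600 to 5680. Nr2f6, an orphan receptor of the COUP family, had 3710 on db/db 2, with the others at 2700 to 2830. Nr2f1, a dim gene of the same family, had 4.77 on BKS 5, with the other BKS arrays at 33.8 to 49.9. Ncoa1, the p160 coactivator, had 1660 on BKS 1, with the others at 926 to 1010. Ncoa2, its relative, had 1580 on BKS 2, with the others at 1970 to 2070. No array appears more than once.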

How the results depend on the processing

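There were 23 alternatives, each changing 1 choice. Esrrg, Rarb and Nr1i2 rose, and no other member did, under median centring, no further normalization, either pseudocount, the filter on dim genes, eBayes without a trend or robust, and array weights. The count of 3 was 1 with the probe set of largest variance, 1 with the mean of a gene's probe sets, 0 for the low and 0 for the high 18S set by itself, 4 with the 18S block, and 0 to 3 with an array left out. Members that fell numbered 1 (Rxrb) in the high 18S arrays alone and 0 elsewhere. Subsets of 4 or 5 arrays hold fewer samples by construction; other causes were not tested. With the replicate number as a block 2 members rose and 0 fell, the median was 0.01 and the probe set count 3; Nr1i2 then had an adjusted p of 0.0616, and 595 genes rose and 541 fell.

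The members' median was 0.15 with median centring, 0.36 with the largest variance, -0.0234 for the low and 0.19 for the high 18S set, and 0.01 to 0.13 with an array left out. All genes that rose (524) numbered 323 with median centring, 255 without a trend, 214 for the low and 240 for the high 18S set, and 309 to 517 with an array left out. All genes that fell (474) numbered 212 with median centring, 262 with the largest variance, 272 with averaged probe sets, 212 without a trend, 754 with the 18S block, 220 for the low and 225 for the high 18S set, and 284 to 435 with an array left out. Member probe sets past the threshold (3) numbered 1 without a trend, 6 with the block, 0 for the low and 1 for the high 18S set, and 0 to 3 with an array left out.

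Signs turned as follows, the cause not tested. With median centring they were Rxra 0.0402, Nr2c1 0.0314 and Nr3c2 0.0024, and with a pseudocount of 1 Nr2f1 0.0272. With the largest variance they were Rxra 0.00093, Rarg 0.0353, Rora -0.16, Hnf4a 0.55, Nr2c1 0.63, Nr2f2 0.97, Esrrg -0.17, Nr5a2 -0.17, Ncoa1 0.78, Nrip1 -0.0658, Tbl1xr1 0.53, Klf9 0.26, Tgm2 0.43 and Nr3c1 0.247. With averaged probe sets they were Hnf4a 0.13, Nr2f2 0.22, Nr5a2 -0.0267 and Ncoa1 0.0702. With array weights Nr2c1 was 0.00026, and with the 18S block 0.0106. In the low 18S arrays they were Nr2f2 0.0425, Esr1 -0.11, Nr6a1 -0.21 and Nrip1 -0.0273. In the high ones they were Nr2c1 0.0524, Nr2f1 0.52, Nr2f6 -0.10, Nr3c2 0.0651, Nr5a2 -0.0711 and Med1 0.67. With the replicate block they were Nr3c2 0.0082 and Nr6a1 -0.0697. With an array left out Nr2c1 ran from -0.0801 to 0.0961, Nr2f1 from -0.384 to 0.0424, Nr2f6 from -0.0391 to 0.15, Nr3c2 from -0.15 to 0.14, Nr5a2 from -0.0051 to 0.15 and Nr6a1 from -0.10 to 0.30.

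Dim genes limit what can be said: the table holds no detection calls, and standard errors of members ran from 0.11 to 0.53 on the log2 scale, against a median of 0.32 over all genes.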

Other observations

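Probe sets of the same gene often differed. Of 26 members with several probe sets 15 had changes of both signs, and 9 members had a single probe set. The share with both signs over all genes was not computed, so whether this is particular to the members is not known. Med1, the Mediator subunit, ranged from -1.76 to 0.62 over its 7 probe sets and the orphan receptor Nr2c1 was positive on 1 of 5, at 0.63. Nr6a1 was positive on all 5, from 0.02 to 1.32, Nr4a3 was negative on all 3, and Ncoa2 was negative on all 4. At an unadjusted p under 0.05 there were 18 of 110 member probe sets, while 17.6% of all genes were under it in the gene fit. The share over all probe sets was not computed.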
